A study of Mus musculus with 2 samples.

Results

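Meningeal fibroblast nuclei were examined in single-nucleus RNA sequencing of whole fetal mouse brain. They were chosen by their own transcripts. A nucleus was a member when it had 500 or more detected genes, no more than 5% of its unique molecular identifiers (UMIs, each standing for 1 captured RNA molecule) from mitochondrial genes, and at least 4 UMIs summed over the 7 genes Col1a1, Col1a2, Col3a1, Slc6a13, Foxc1, Dcn and Lum. It could hold at most 2 UMIs summed over the endothelial genes Flt1, Kdr, Cldn5 and Cdh5, and at most 2 over the mural genes Rgs5, Kcnj8, Abcc9 and Higd1b, which mark the pericytes and smooth muscle cells on vessels. The rule found 200 members among 13366 nuclei that passed the gene and mitochondrial limits, of 20574 barcodes in all. The wildtype library held 80 of them among 6686 nuclei, and the library labelled Cav1 knockout held 120 among 6680. Both libraries came from frozen whole brain of fetal mice, one labelled wildtype and the other labelled Cav1 knockout, and are called wildtype and knockout-labelled below. Cav1 encodes caveolin-1, the main coat protein of caveolae, the small pits of the plasma membrane. The nuclei were freed by lysis, passed through a sucrose cushion and captured with 10x 3′ v3.1 chemistry. The labels used here give neither the knockout allele, the gestational age, the sex, nor how many animals went into a library. With 1 library per genotype no difference between them has a replicate check and none is tested. Every interval below is a 95% interval for counting error only, and genotype, litter, dissection and library cannot be told apart.

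Meningeal fibroblasts build the membranes that wrap the brain: the dura on the outside, the arachnoid with its tight barrier layer, and the pia on the brain surface. They secrete fibrillar collagens, lay down much of the basement membrane at the brain surface on which radial glia anchor their end-feet, and release signals such as Cxcl12, bone morphogenetic proteins and retinoic acid that are known to guide cortical development. Foxc1, a forkhead transcription factor, is needed for the meninges to form. Slc6a13, a GABA and taurine transporter, and Aldh1a2, the enzyme that makes retinoic acid from retinaldehyde, are widely used to recognise the leptomeninges, the pia and arachnoid together.

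The start regions of 4 of these genes are shown first, because they are the genes on which the description turns: 2 collagens of the rule, the forkhead factor of the rule, and the retinoic acid enzyme that the rule did not use. The sequences are from RefSeq on the plus strand of GRCm38.p6, each covering the 150 bases before the annotated start. They lie at chr6:4505468-4505617 for Col1a2, chr1:45311388-45311537 for Col3a1, chr13:31806496-31806645 for Foxc1 and chr9:71215639-71215788 for Aldh1a2. Capitals mark a CCAAT box, searched as CCAAT on either strand, so that it can also read ATTGG.
Col1a2: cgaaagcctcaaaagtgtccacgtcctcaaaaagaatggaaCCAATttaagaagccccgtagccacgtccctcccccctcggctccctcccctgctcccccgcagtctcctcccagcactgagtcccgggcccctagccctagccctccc
Col3a1: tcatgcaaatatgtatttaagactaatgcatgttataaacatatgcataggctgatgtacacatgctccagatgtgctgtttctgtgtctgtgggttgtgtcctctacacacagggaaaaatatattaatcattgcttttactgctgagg
Foxc1: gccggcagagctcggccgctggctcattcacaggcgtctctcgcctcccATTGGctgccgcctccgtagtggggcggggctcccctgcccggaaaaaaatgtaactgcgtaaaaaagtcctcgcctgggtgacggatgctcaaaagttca
Aldh1a2: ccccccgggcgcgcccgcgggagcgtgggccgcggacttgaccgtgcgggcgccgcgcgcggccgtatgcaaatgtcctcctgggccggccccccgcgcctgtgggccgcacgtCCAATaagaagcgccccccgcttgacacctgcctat
The first base of the box lay 109 bases before the start in Col1a2, 101 in Foxc1 and 36 in Aldh1a2, and the Col3a1 window held none. Over all 32851 RefSeq promoter windows of this length 24.5% held the box. Over the 219 windows that matched 183 of the 272 genes high in the fibroblast nuclei (defined below) the share was 24.2%, no higher than over all promoters.

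Depth has to be given before the results, because a rule on raw UMIs takes in deep nuclei more easily. The members held 277413 UMIs in the wildtype library and 766901 in the knockout-labelled library. The median member had 2791 and 3178.5 UMIs, in the same order, against medians of 2127 and 2352.5 for the other nuclei, but the deepest member had 12778 UMIs in the wildtype library and 97470 in the knockout-labelled library. Members over 12000 UMIs numbered 2 and 13, and held 9.13% and 51.8% of their library's member UMIs. In such nuclei 4 UMIs of collagen are a very small part of the RNA.

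The comparisons are therefore given also for the marker-rich nuclei, the members in which the 7 rule genes made up at least 0.1% of the UMIs. This limit was chosen after the data had been seen, and because it uses the rule genes, their own levels in these nuclei are partly set by it. The marker-rich nuclei were 76 of 80 wildtype and 102 of 120 knockout-labelled members. The remaining 4 and 18 had median depths of 10926 and 17744 UMIs and held 15.4% and 56.2% of the member UMIs. Just below the limit the highest share was 0.0861% and 0.0998%, and just above it the lowest was 0.102% in each library.

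**Figure D1:**
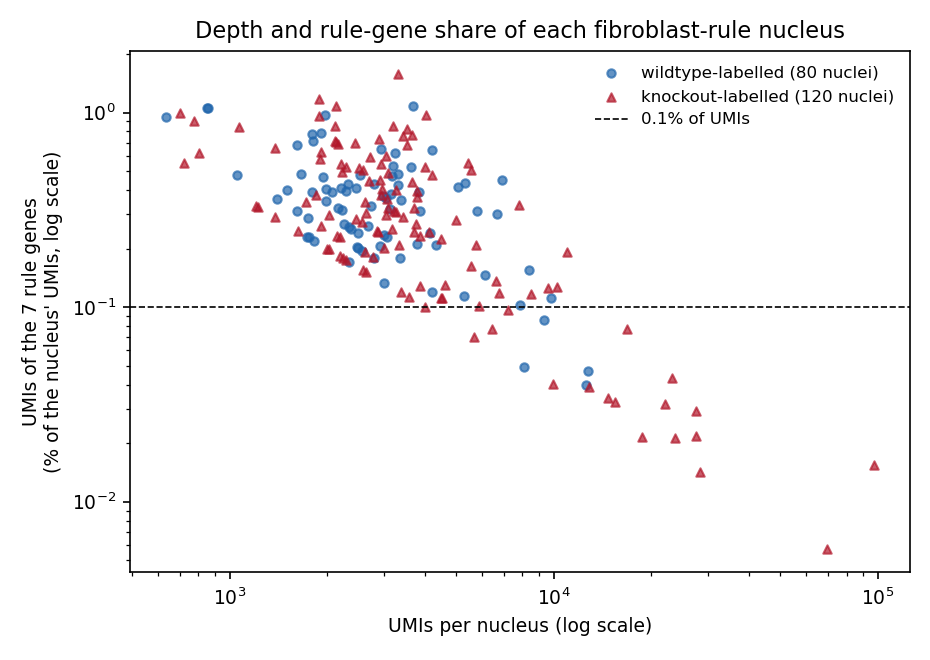
Depth and marker content of the fibroblast nuclei: each point is 1 member, with its UMIs on a log x axis and the percent of those UMIs that fall on the 7 rule genes on a log y axis. Both libraries share 1 panel, with a colour and marker for each, and the line marks 0.1%. The nuclei under the line number 4 in the wildtype library and 18 in the knockout-labelled library, with median depths of 10926 and 17744 UMIs, and some nuclei above the line are deeper than some below it.

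The marker-poor members also differed from the rest in markers of other cells. A list of 10 neuronal genes (Snap25, Syt1, Rbfox3, Stmn2, Dcx, Tubb3, Gad1, Slc17a6, Elavl4 and Gap43) summed to 2341 CPM (UMIs of the gene scaled to a library total of 1e6) in the wildtype and 2651 CPM in the knockout-labelled marker-poor members. It summed to 1202 and 1252 CPM in the marker-rich nuclei, and in the other nuclei of the brain to 2994 and 3115 CPM. A list of 12 further fibroblast genes that the rule did not use ran the opposite way, at 1428 and 406 CPM in the marker-poor members, 4521 and 3838 CPM in the marker-rich nuclei and 153 and 133 CPM in the other nuclei. By both lists the marker-poor members lay between the marker-rich nuclei and the rest of the brain. Whether they are doublets was not tested: the automatic threshold of Scrublet, a doublet caller, marked no nucleus in either library, so it did not work here. The 8% of nuclei with the highest Scrublet scores included 13 wildtype and 33 knockout-labelled members, of which 4 and 8 were marker-poor.

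The library labels can be set against Cav1 itself. Among the nuclei that are not members, Cav1 had 69 UMIs in wildtype, 4.08 CPM (3.17 to 5.16), against 79 UMIs under the knockout label, 4.13 CPM (3.27 to 5.15). These levels did not differ beyond counting error. In endothelial nuclei, found by the mirror of the rule (at least 4 endothelial UMIs, at most 2 of the fibroblast genes and at most 2 of the mural genes), Cav1 had 13 UMIs at 73.0 CPM (38.9 to 125) in wildtype against 1 UMI at 3.68 CPM (0.0932 to 20.5). Cav1 was thus low in the knockout-labelled library in the cells where it was highest in wildtype. Over all nuclei that are not members, which include the endothelial nuclei, it was not low. The genotype is therefore given as the label states it. The libraries shared 43 barcode sequences, none of them among members.

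Fibroblast nuclei made up 1.20% (0.950 to 1.49) of the wildtype nuclei and 1.80% (1.49 to 2.14) of the knockout-labelled nuclei. The difference was 0.60 percentage points (0.188 to 1.02), the knockout-labelled library being higher. Marker-rich nuclei alone were 1.14% and 1.53% of nuclei, a difference of 0.39 points (0.000415 to 0.785). With every nucleus thinned to 1000 UMIs and the rule scaled down to at least 2 fibroblast UMIs and at most 1 of each excluded set, the shares were 1.40% and 1.67%, and the difference of 0.27 points (−0.19 to 0.73) was within counting error. That setting left out 846 wildtype and 1111 knockout-labelled nuclei with fewer UMIs. So under the scaled rule a higher share in the knockout-labelled library was not detectable. That rule did not choose the same nuclei. After thinning, at least 2 rule-gene UMIs were found in 76.6% and 69.8% of members, and in 0.573% and 0.257% of the far more numerous other nuclei. The scaled shares therefore also count nuclei that are not members, and cannot settle the share of members at equal depth.

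Near the limit of the rule the libraries also differed in how many nuclei they held. A rule sum of exactly 4 was found in 6 wildtype and 20 knockout-labelled members, and a sum of exactly 5 in 10 and 14. Outside the limit, a sum of 3 was found in 19 and 28 nuclei and a sum of 2 in 92 and 54. At least 1 rule-gene UMI was present in 12.5% and 9.79% of the nuclei that were not members, so a single collagen UMI did not distinguish a fibroblast nucleus. The median member had UMIs of 4 of the 7 rule genes, and at least 3 of them were detected in 74 wildtype and 106 knockout-labelled members.

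Of the genes that chose the nuclei, Col3a1 (a fibrillar collagen of soft tissue) had 255 UMIs in 76 of 80 wildtype members and 484 in 114 of 120 knockout-labelled members. Slc6a13 had 130 UMIs in 46 members and 194 in 66. Col1a1 and Col1a2, which encode the chains of type I collagen, were both detected in 40 and 57 members and neither of them in 6 and 19. Foxc1 was sparse, with 24 UMIs in 19 members and 18 in 18. These values describe the choice and support nothing.

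Other genes were also far higher in these nuclei than in the rest of the brain. A gene was called member-high when its CPM in the members was at least 4 times that of all other nuclei in both libraries, with at least 10 UMIs in the members of each. Of 6381 genes with enough UMIs, 272 were member-high, 4.26%, and these hold all 7 rule genes, so that 265 were genes outside the rule. Because the rule picked the nuclei from the same counts, this is a description with no test. With the marker-rich nuclei alone 391 genes met the same criteria and included 263 of the 272. Of the 12 further fibroblast markers 10 had enough UMIs and 8 were member-high, and at least 2 of their UMIs were present in 74 of 80 and 103 of 120 members.

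The genes below were among those that stood furthest above the other nuclei, and from which membrane they came was not tested. Ranbp3l, a Ran-binding protein, had 277 UMIs in 49 wildtype members and 317 in 71 knockout-labelled members, 126-fold and 80.6-fold the level of the other nuclei. Cped1 had 292 and 319 UMIs, at 99.5-fold and 64.1-fold. Lepr, the leptin receptor, had 51 and 74 UMIs, at 66.2-fold and 63.6-fold. Aldh1a2 had 35 and 56 UMIs, at 64.7-fold and 82.1-fold. Bmp6, a bone morphogenetic protein, had 213 and 284 UMIs, at 79.3-fold and 44.5-fold. Tbx18, a T-box factor of mesenchyme, had 53 and 72 UMIs, at 89.8-fold and 52.8-fold. In every one of these genes the members of each library stood far above the rest of the brain. Some were also detected in mural nuclei, where Cped1 had 9 and 13 UMIs and Tbx18 had 3 and 7. Ranbp3l had 0 and 1 there, and Lepr, Aldh1a2 and Bmp6 had none.

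Some of the member-high genes are neighbours in the genome. On chromosome 19 (GRCm39, GENCODE M39) the organic anion transporter genes Slc22a8 (8568476 to 8589541) and Slc22a6 (8595356 to 8605663) lie side by side, with the pseudogene Gm8189 (8454647 to 8519162) next to them. Gm8189 had 35 and 25 UMIs in members at 267-fold and 125-fold, and since it is a copy of a coding gene its reads may belong partly to that gene. A pair of long non-coding RNA genes on chromosome 10, Gm30624 (158.7-fold and 52.3-fold) and Gm47865 (144-fold and 53.0-fold), overlap on opposite strands. Whether counting used strand is not given in the sources used here, so their reads cannot be told apart.

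**Figure D2:**
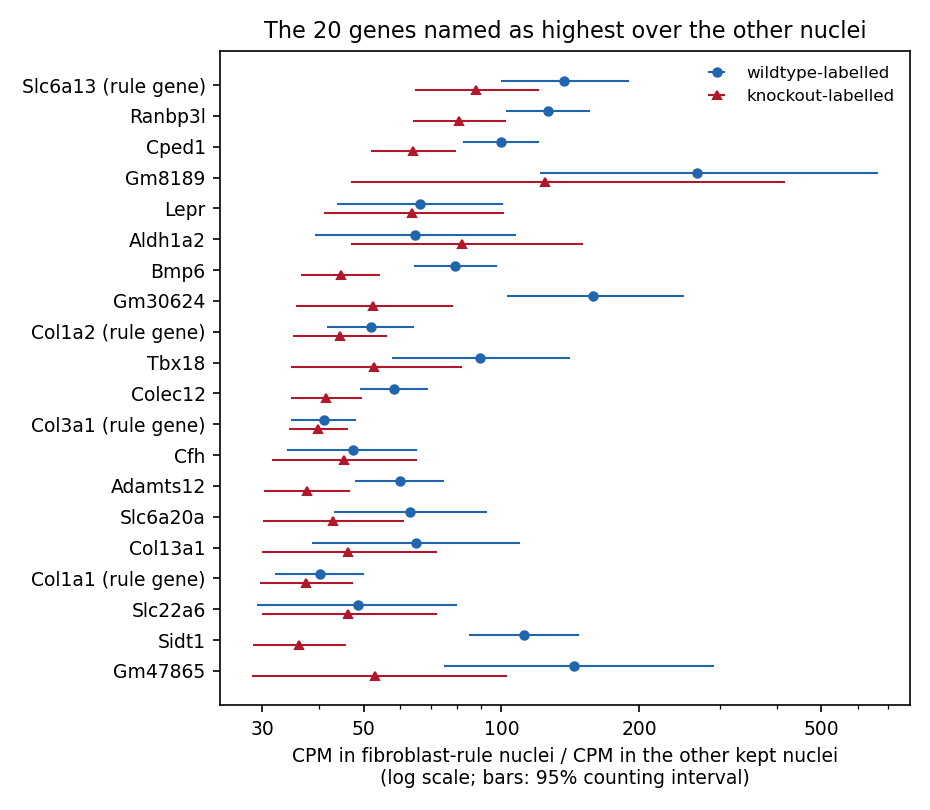
The 20 member-high genes that stood furthest above the other nuclei: each row is a gene, each point is 1 library, and the log x axis gives the CPM of the fibroblast nuclei divided by that of all other nuclei, with 95% counting intervals as bars and rule genes marked. Ranbp3l reached 126-fold in wildtype and 80.6-fold in the knockout-labelled library, and Aldh1a2 64.7-fold and 82.1-fold.

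The members were not uniform. Of the nuclei with a Slc6a13 UMI, 38 of 46 in wildtype and 52 of 66 in the knockout-labelled library also had Ranbp3l, against 11 of 34 and 19 of 54 of the nuclei without Slc6a13. Bmp6 ran the same way, in 38 of 46 and 53 of 66 with Slc6a13 against 9 of 34 and 15 of 54 without. Nuclei with Slc6a13 were deeper in wildtype (median 3085.5 against 2407 UMIs) and slightly so in the knockout-labelled library (3193.5 against 3028). With each member thinned to 1000 UMIs, Ranbp3l was found in 21 of 30 and 28 of 42 nuclei with Slc6a13 and in 16 of 47 and 18 of 74 without, so the pattern was also there at equal depth. Aldh1a2 mostly fell within the nuclei with Slc6a13, which held 17 of 21 and 28 of 31 of its nuclei.

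Dkk2, a secreted Wnt antagonist placed here in the list for the dura, lay mostly elsewhere. It was found in 11 members of each library, and 3 of 11 in each had Slc6a13. After thinning it remained in 5 and 4 nuclei, none of which had Slc6a13, too few to say more. Prrx1, a homeobox factor of mesenchyme, was found with Slc6a13 in 16 of 32 and 19 of 32 nuclei, close to the share of Slc6a13 among all members. The co-detection counts share depth and library and are given without a test.

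Genes from lists for all 3 membranes were detected, those of the pia and arachnoid at shares far above the other nuclei. At least 1 UMI of the pial list (4 genes, among them Lama1 and Cxcl12) was found in 56.2% and 55.8% of members, of the arachnoid list (6 genes, among them Aldh1a2, Cldn11 and Cdh1) in 53.8% and 55% and of the dural list (5 genes, among them Dkk2 and Foxp1, which the brain also expresses) in 77.5% and 70.8%. Thinned to 1000 UMIs the shares were 31.2% and 31.0% for the pial list, 31.2% and 31.0% for the arachnoid list, and 53.2% and 31.0% for the dural list. In the other nuclei, thinned alike, the pial list was found in 3.59% and 3.92% and the arachnoid list in 1.15% and 0.660%, well below the members. The dural list was found in 21.6% and 19.8% of the other nuclei, less far below the members, and of its genes with enough UMIs 1 of 2 was member-high. Without thinning it was found in 94.4% and 81.6% of endothelial nuclei and 90.5% and 69.2% of mural nuclei (both defined by mirror rules), against 77.5% and 70.8% of members. It therefore did not set the members apart from vessel nuclei. All 3 shares of members fell on thinning, so they depend on depth and are read within a library. The dural share still differed between the libraries at equal depth, at 53.2% (41.5 to 64.7) and 31.0% (22.8 to 40.3). The cause of that difference was not tested.

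Claudin 11 and E-cadherin, junction proteins of the arachnoid barrier, had few UMIs. Cldn11 had 25 UMIs in 16 wildtype and 46 in 23 knockout-labelled members, 25.0-fold and 26.7-fold above the other nuclei. Cdh1, which encodes E-cadherin, had 24 UMIs in 10 and 16 in 10 members. Among marker-rich nuclei Cdh1 stood at 102 CPM (65.5 to 152) in wildtype and 29.8 CPM (14.3 to 54.7) under the knockout label, with a log2 ratio of −1.78 (−3.01 to −0.66), but 9 of the 24 wildtype UMIs came from 1 nucleus.

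Vessel cells share much matrix with fibroblasts, and the genes named here were chosen to compare the 3 kinds of nuclei. The mirror rules found 36 wildtype and 49 knockout-labelled endothelial nuclei (0.538% and 0.734%) and 21 and 26 mural nuclei (0.314% and 0.389%). These vessel nuclei are also part of the other nuclei, or rest, with which the members are compared throughout. Pdgfra, the platelet-derived growth factor receptor of fibroblasts, stood at 396 CPM (320 to 485) and 414 CPM (348 to 488) in marker-rich fibroblast nuclei. It was at 0 and 25.8 CPM in endothelial nuclei and at 0 in the mural nuclei of both libraries, which allows up to 57.1 and 32.5 CPM. Gja1, a gap junction protein, was at 635 and 592 CPM in the marker-rich fibroblast nuclei against 78.6 and 92.0 CPM in endothelial and 0 and 8.82 CPM in mural nuclei. Pecam1, an endothelial adhesion molecule outside the rule, had 1 UMI in the members of each library.

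Cdh5 was the exception among the endothelial genes. VE-cadherin, its product, is the junction protein best known from endothelium. It had 19 UMIs in 14 wildtype members and 37 in 27 knockout-labelled members, although the rule allowed at most 2 per nucleus. In marker-rich nuclei its level was 68.2 CPM (38.97 to 111) and 95.2 CPM (65.1 to 134), 10.6-fold and 10.2-fold the level of the other nuclei, against 169 and 217 CPM in the endothelial nuclei that were chosen with it. Flt1, the next endothelial gene of the rule, had 1 and 4 UMIs in the members, Kdr had 0 and 3, and Cldn5 had 2 and 3. The endothelial list as a whole summed to 124 and 173 CPM in the marker-rich nuclei against 4803 and 5231 CPM in endothelial nuclei. It holds Flt1, Kdr, Cldn5 and Cdh5, which the rules limit in members and require in endothelial nuclei, so this contrast is partly set by the choice. Cdh5 was found beside Slc6a13 in 10 of its 14 and 14 of its 27 nuclei.

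**Figure D3:**
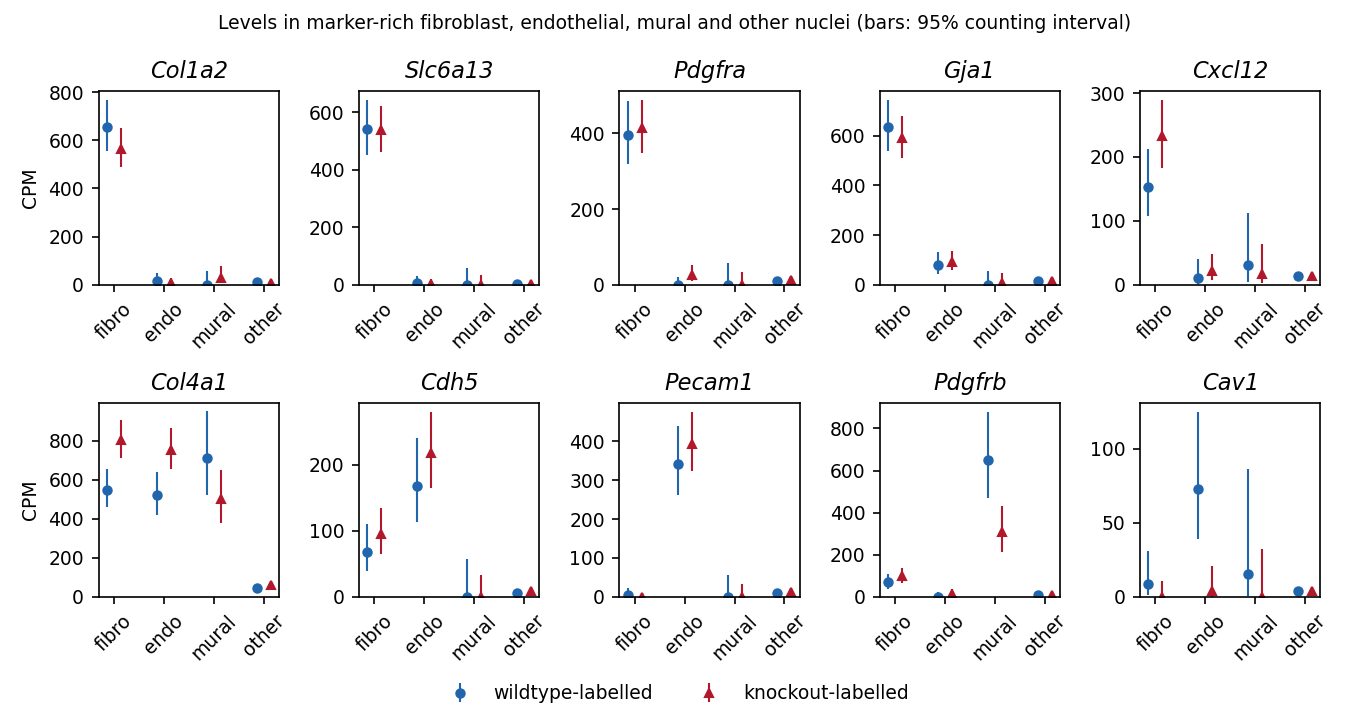
Levels of 10 genes in 4 sets of nuclei: marker-rich fibroblast, endothelial, mural and other nuclei, with CPM on the y axis, 1 panel per gene, 1 colour per library and 95% counting intervals as bars. The other nuclei are all that are not members, so they include the endothelial and mural nuclei. Pdgfra and Slc6a13 are high in the fibroblast nuclei, Cdh5 is present in both fibroblast (68.2 and 95.2 CPM) and endothelial nuclei (169 and 217 CPM), and Col4a1 is present in all 3 matrix-making sets.

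Between the libraries, a gene with at least 30 UMIs over the members of both was counted as past 2-fold when its log2 ratio, knockout-labelled over wildtype, was at least 1 or at most −1. This is a rule of size and no test. Over all members 536 of 7168 genes were higher in the knockout-labelled library, 7.48%, and 327 were lower, 4.56%, with a median log2 ratio over all counted genes of −0.04. In the marker-rich nuclei 121 of 4614 genes were higher, 2.62%, and 90 were lower, 1.95%, with a median of −0.01. Only 51 of the 536 higher genes and 46 of the 327 lower genes were also past 2-fold in the marker-rich nuclei, where 178 and 233 of them had enough UMIs.

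The member-high genes differed most between the 2 ways of summing. Of the 272, 248 had enough UMIs over all members, and 0 were higher and 100 lower, with a median log2 ratio of −0.85. Of 237 counted in the marker-rich nuclei 7 were higher and 11 lower, with a median of −0.06. The shares there were 2.95% higher and 4.64% lower, against 2.62% and 1.95% of all genes, so the lower share was above that of all genes. Without the 7 rule genes they were 2.61% and 4.35% of 230 genes. Most genes that are typical of these cells thus had lower ratios when the marker-poor members, which held 56.2% of the knockout-labelled member UMIs, were in the sum, and ratios near 0 without them. For this reason each group below is given both ways. Each count of a list below is to be read against the shares of all genes past 2-fold. These were 7.48% higher and 4.56% lower over all members, and 2.62% and 1.95% in the marker-rich nuclei.

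**Figure D4:**
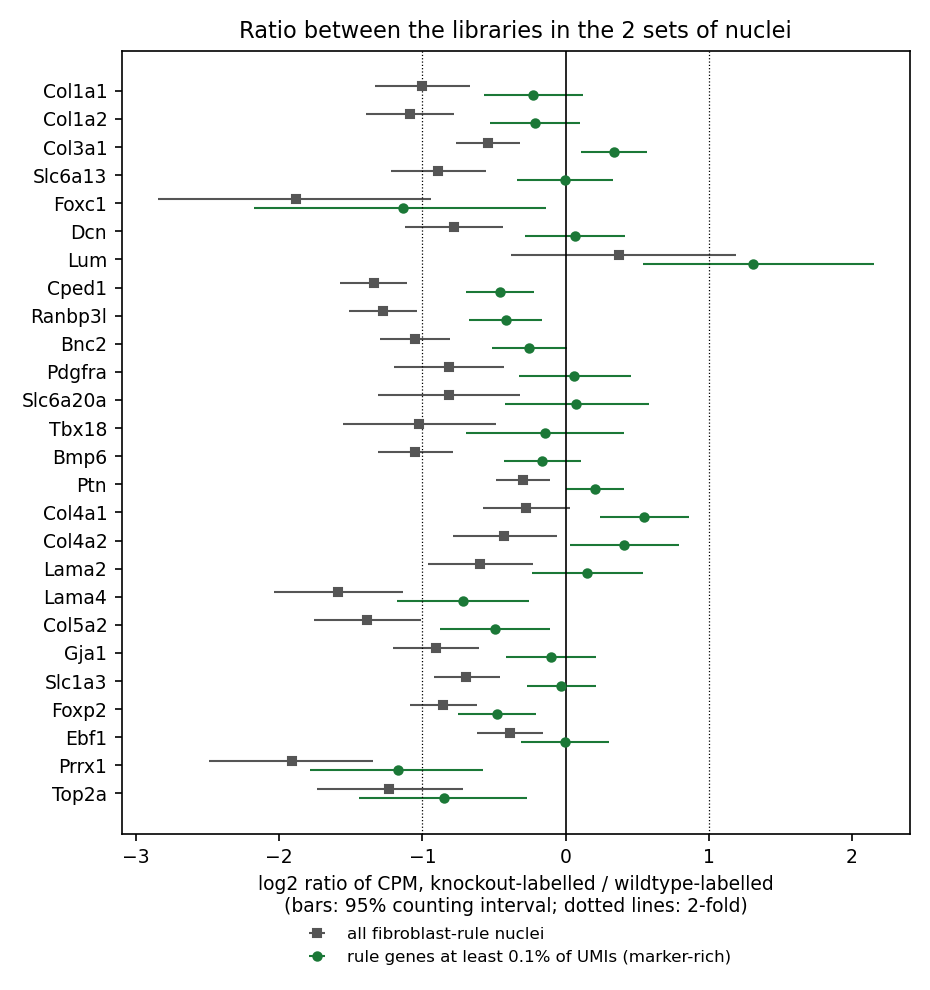
Log2 ratios, knockout-labelled over wildtype, of 26 named genes in all members and in the marker-rich nuclei: each row is a gene and each bar a 95% counting interval, with lines at −1, 0 and 1. Most matrix genes lie below 0 over all members and near 0 in the marker-rich nuclei (Col1a2 at −1.09 and −0.22), Prrx1 and Foxc1 lie at or below −1 in both, and Lum lies above 1 in the marker-rich nuclei.

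The fibrillar collagens, the triple-helical proteins that give membranes their strength, are the main product of fibroblasts. Of 7 with enough UMIs, 0 were higher and 4 lower over all members (median log2 ratio −1.0) and 0 passed 2-fold in the marker-rich nuclei (median −0.22), against the all-gene medians of −0.04 and −0.01. Col1a1 had 134 and 185 UMIs in members, 483 CPM (405 to 572) against 241 CPM (208 to 279), a log2 ratio of −1.0 (−1.33 to −0.67). In the marker-rich nuclei it stood at 549.6 and 470.1 CPM, a log2 ratio of −0.23 (−0.57 to 0.12). Col1a2, the partner chain, ran alongside it at −1.09 over all members and −0.22 (−0.53 to 0.10) in the marker-rich nuclei. Col1a1, Col1a2 and Col3a1 are rule genes, and the limit that defines the marker-rich nuclei partly sets their levels, so these 3 values describe the chosen nuclei only. Col3a1 was higher there in the knockout-labelled library, at 1324 CPM (1204 to 1453) against 1048 CPM (921 to 1188), a log2 ratio of 0.34 (0.11 to 0.57). Col5a2, a chain that regulates fibril width, was outside the rule and stood at −0.49 (−0.88 to −0.11), with 119 and 126 UMIs over all members. The other counted chains outside the rule were Col5a1 at 0.19 (−0.49 to 0.90), Col11a1 at −0.25 (−0.85 to 0.36) and Col27a1 at −0.16 (−1.25 to 0.96), each within counting error.

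Other collagens, which form networks, beaded filaments or span the membrane, gave 0 higher and 3 lower of 8 over all members (median −0.71), and 1 higher and 1 lower of 8 in the marker-rich nuclei (median 0.09). Of 9 tested against the other nuclei 8 were member-high. Col23a1, a transmembrane collagen, had 163 and 305 UMIs, and Col13a1, another, had 33 and 63. Col6a1, a chain of beaded filaments, had 16 and 46 UMIs in marker-rich nuclei, a log2 ratio of 1.01 (0.16 to 1.93). Col6a3, a chain of the same protein, was at −0.12 there, and the difference between the chains was not tested. Col25a1 was the lower gene, with 53 and 26 UMIs at −1.55, and 19 of the 53 wildtype UMIs came from 1 nucleus.

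Basement membrane genes set the fibroblast nuclei apart from the brain but not from the vessel cells. The list of 19 genes summed to 4329 and 4891 CPM in the marker-rich nuclei, 3196 and 3755 CPM in endothelial nuclei, 3068 and 2285 CPM in mural nuclei and 492 and 538 CPM in the rest. Of 16 genes tested 13 were member-high. Between the libraries 0 were higher and 4 lower of 15 over all members (median −0.43), and 0 and 0 of 15 in the marker-rich nuclei (median 0.15).

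Within the list single chains differed by small amounts. Col4a1, a chain of the type IV collagen common to all basement membranes, had 131 and 299 UMIs over all members, and in the marker-rich nuclei stood at 549.6 CPM and 803 CPM, a log2 ratio of 0.55 (0.24 to 0.86). Its neighbour Col4a2, which lies head to head with it on chromosome 8, was at 0.41 (0.03 to 0.79). Lamb1, a laminin beta chain, was at 0.80 (0.21 to 1.41) with 39 and 104 UMIs over all members. Lama4, a laminin alpha chain of vessels and mesenchyme, was lower under the knockout label in both sets, with 88 and 81 UMIs at −1.59 (−2.04 to −1.13) over all members and 87 and 76 at −0.71 (−1.18 to −0.25) in the marker-rich nuclei. Col4a1 was higher in knockout-labelled endothelial nuclei too (522 and 755 CPM) and lower in mural nuclei (713 and 503 CPM), with no replicate for either. Lama2, the alpha chain lost in a congenital muscular dystrophy, was at 0.15, and Fn1, fibronectin, had 98 and 170 UMIs in members.

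Proteoglycans and matricellular proteins, which bind collagen and growth factors, gave 1 higher and 3 lower of 16 over all members (median −0.62) and 2 higher and 1 lower of 14 in the marker-rich nuclei (median 0.08). Decorin and lumican are small leucine-rich proteoglycans whose genes lie next to each other on chromosome 10, Dcn at 97315275 to 97358155 and Lum at 97400990 to 97408577. Dcn, a rule gene too, was within counting error in the marker-rich nuclei, at 494 and 518 CPM, a log2 ratio of 0.07 (−0.28 to 0.42). Lum had 18 UMIs in 15 wildtype marker-rich nuclei and 64 in 45 knockout-labelled ones, 76.7 CPM (45.4 to 121) against 190.4 CPM (147 to 243), a log2 ratio of 1.31 (0.54 to 2.15). No nucleus held more than 4 of these UMIs, so the difference was spread over many nuclei. Over all members it was 0.37 (−0.38 to 1.19). Lum is a gene of the rule, which a nucleus could pass by Lum alone.

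Emilin1, an elastic fibre protein, was the other higher gene, with 12 and 36 UMIs in marker-rich nuclei at 1.07 (0.09 to 2.14). Matn2, a matrilin that links matrix filaments, was the lower gene, with 21 and 15 UMIs at −1.0 (−2.06 to 0.02). Tnc, tenascin C, was past 2-fold only over all members, with 12 and 93 UMIs, of which 30 came from 1 nucleus. Fbn2, a fibrillin of fetal microfibrils, was among the most frequent of the list with 176 and 257 UMIs, at −0.17 in the marker-rich nuclei.

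Enzymes and chaperones of collagen processing formed a list of 20 genes, most of them too sparse to be counted. Of 7 counted over all members none passed 2-fold (median −0.37), and of 6 in the marker-rich nuclei 1 was higher and 0 lower (median 0.04). Of all genes 7.48% were higher and 4.56% lower over all members, and 2.62% and 1.95% in the marker-rich nuclei. So few counted genes cannot be set apart from these shares. Serpinh1, the collagen chaperone HSP47, had 64 and 137 UMIs over all members and stood at 273 and 327 CPM in the marker-rich nuclei. Adamts2, which removes the amino-terminal propeptide of fibrillar collagens, was the higher gene, with 17 and 53 UMIs in the marker-rich nuclei, 72.4 CPM (42.2 to 116) against 158 CPM (118 to 206), a log2 ratio of 1.12 (0.31 to 2.0).

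Among transcription factors of mesenchyme Prrx1 and Foxc1 had lower values in the knockout-labelled library, spread over many nuclei. Of 16 counted, 0 were higher and 6 lower over all members (median −0.93), and 0 higher and 2 lower of 16 in the marker-rich nuclei (median −0.19). Of all genes 7.48% were higher and 4.56% lower over all members, and 2.62% and 1.95% in the marker-rich nuclei. The 2 lower genes of the marker-rich nuclei were Prrx1 and Foxc1. Prrx1 had 64 UMIs in 32 wildtype members and 47 UMIs in 32 knockout-labelled members, with no more than 7 in 1 nucleus. Its marker-rich level was 268 CPM (206 to 343) against 119 CPM (85.0 to 162), a log2 ratio of −1.17 (−1.78 to −0.58). Foxc1, on chromosome 13 at 31990616 to 31996459 in GRCm39, had 23 UMIs in 18 marker-rich wildtype nuclei and 15 in 15 knockout-labelled ones, 98.0 CPM (62.1 to 147) against 44.6 CPM (25.0 to 73.6), a log2 ratio of −1.13 (−2.18 to −0.13). In the nuclei that are not members the ratios were 0.02 for Prrx1 and −0.05 for Foxc1. Foxc1 is a gene of the rule, and its interval came close to 0.

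The other factors did not pass 2-fold in the marker-rich nuclei. Tbx15, a T-box factor, was at −1.51 over all members and −0.54 (−1.10 to 0.01) in the marker-rich nuclei, and Tbx18 at −1.02 and −0.15. Bnc2, a zinc finger protein of connective tissue, had 242 and 323 UMIs at −1.05 and −0.25. Zic1, a zinc finger factor shared with the brain, had 117 and 152 UMIs at −1.09 and −0.33, and overlaps Zic4 on the opposite strand. Foxd1 had 31 and 45 UMIs and was 32.1-fold and 18.7-fold above the other nuclei. Foxp1 and Foxp2 were only 1.82-fold and 1.89-fold above them in wildtype, so they did not mark the fibroblasts. Ebf1 was highest in mural nuclei (3253 and 2223 CPM) rather than in members (829 and 632 CPM).

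Retinoic acid genes gave 0 higher and 1 lower of 5 over all members (median −0.79) and 1 higher and 0 lower of 4 in the marker-rich nuclei (median 0.07). Aldh1a2 was within counting error there, with 31 UMIs in 19 wildtype and 50 in 28 knockout-labelled nuclei, 132 CPM (89.7 to 187) against 149 CPM (110 to 196), a log2 ratio of 0.17 (−0.50 to 0.87). Rdh10, which makes the retinaldehyde that Aldh1a2 uses, was the higher gene, with 7 UMIs in 6 nuclei against 29 in 21, a log2 ratio of 1.53 (0.31 to 2.97). Rarb, a retinoic acid receptor, had 86 and 112 UMIs over all members and was at −0.38 in the marker-rich nuclei. The enzyme that clears retinoic acid, Cyp26b1, had 8 and 41 UMIs in 2 and 11 members. With each member weighted equally it stood at 30.1 and 28.5 CPM, a log2 ratio of −0.083. In the other nuclei it stood at 5.67 and 40.1 CPM, a log2 ratio of 2.82 (2.52 to 3.14). The excess of the other nuclei in the knockout-labelled library was thus not seen in equally weighted members.

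Secreted signals and receptors gave 1 higher and 3 lower of 25 over all members (median −0.49) and 0 higher and 2 lower of 22 in the marker-rich nuclei (median 0.05). Bmp6, Bmp5 and Bmp7, bone morphogenetic proteins of the roof of the brain, were all member-high. In the marker-rich nuclei Bmp6 stood at 882 and 788 CPM, a log2 ratio of −0.16 (−0.43 to 0.11), Bmp5 at −0.49 (−1.07 to 0.08) and Bmp7 at 0.06. None of the 3 differed beyond counting error. Cxcl12, the chemokine that holds migrating neurons at the pial surface, had 36 and 78 UMIs there, 153 CPM (107 to 212) against 232 CPM (183 to 290), a log2 ratio of 0.60 (0.01 to 1.21). Ptn, pleiotrophin, was among the most frequent with 338 and 761 UMIs over all members, at 0.20 in the marker-rich nuclei.

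The lower signals were Vegfc and Slit3. Vegfc, the growth factor for lymphatic vessels, had 19 UMIs in 14 wildtype marker-rich nuclei and 11 in 8 knockout-labelled ones, 80.9 CPM (48.7 to 126) against 32.7 CPM (16.3 to 58.6), a log2 ratio of −1.31 (−2.52 to −0.16). Slit3, an axon guidance protein, had 77 and 55 UMIs at −1.0 (−1.53 to −0.49), and 19 of the 55 came from 1 nucleus. Kitl, the ligand of Kit, was higher only in the sums over all members, with 5 and 64 UMIs, of which the marker-rich nuclei held 4 and 16. Pdgfra, the receptor, was within counting error in the marker-rich nuclei, at 0.06 (−0.33 to 0.46).

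Transporters and junction proteins, through which the leptomeninges move solutes and couple to each other, gave 0 higher and 1 lower of 13 over all members (median −0.69) and 1 higher and 0 lower of 13 in the marker-rich nuclei (median −0.01). Slc6a13, whose level is partly set by the choice of nuclei, was at 541 and 538 CPM there, a log2 ratio of −0.01 (−0.34 to 0.33). Slc1a3, a glutamate transporter shared with radial glia, was at 1035 and 1014 CPM, 9.44-fold and 9.07-fold above the other nuclei. Slc6a20a, an imino acid transporter, was at 0.08, Slc22a8 at −0.21 and Slc22a6 at 0.38 (−0.28 to 1.07). Gja1 was at −0.10 (−0.41 to 0.22). Gjb6, connexin 30, was the higher gene, with 6 UMIs in 6 nuclei against 26 in 22, a log2 ratio of 1.60 (0.28 to 3.17). The solute carriers named here outside the rule lay within counting error between the libraries.

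Cav1 itself was nearly absent from the fibroblast nuclei. It had 2 UMIs in the wildtype members and 1 in the knockout-labelled members, and in the marker-rich nuclei 2 and 0, where the count of 0 allows up to 11.0 CPM. No fold can be given from such counts, and the depth could not show a loss in these cells. The genes for the other caveola proteins were also sparse, with 6 and 7 UMIs of Cavin1, 2 and 6 of Cavin2, 2 and 2 of Cavin3 and 6 and 11 of Cavin4. Of 15 caveola genes 3 had enough UMIs over all members, with 2 higher and 0 lower (median 1.58), and none had enough in the marker-rich nuclei. The 2 were Cav2, described next, and Pacsin1, a membrane-bending protein, which had 4 and 33 UMIs at 1.58 (0.09 to 3.54) over all members and 3 and 4 UMIs in the marker-rich nuclei. The list summed to 230 and 208 CPM in the marker-rich nuclei and 197 and 240 CPM in the other nuclei, so it did not set the fibroblasts apart.

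Around Cav1 on chromosome 6 (17306140 to 17341451 in GRCm39) other transcripts were higher in the knockout-labelled library. Cav2, at 17281026 to 17289877, had 1 UMI in the wildtype members and 33 UMIs in 18 knockout-labelled members, 3.60 CPM (0.0913 to 20.1) against 43.0 CPM (29.6 to 60.4), a log2 ratio of 3.58 (1.00 to 8.92). Gm15581, a long non-coding RNA gene on the opposite strand (17206822 to 17385603) that spans both, had 3 UMIs and 96 UMIs, a log2 ratio of 3.53 (1.94 to 5.84), with 25 of the 96 in 1 nucleus. The marker-rich nuclei held 1 and 10, and 3 and 23 UMIs of them. The same was seen outside the fibroblasts, where the log2 ratios were 5.17 (4.50 to 5.93) for Cav2 and 4.71 (4.33 to 5.11) for Gm15581, and where 0.272% of wildtype and 9.07% of knockout-labelled nuclei had a Cav2 UMI. Both genes and Cav1 overlap or adjoin, and without strand reads of Gm15581 and of the genes under it cannot be told apart. Of the 7 genes of the region list 5 were counted over all members, with 3 higher and 0 lower (median 1.29), and in the marker-rich nuclei 2 were counted and neither passed 2-fold (median −0.21). Tes was the third higher gene over all members, with 4 and 27 UMIs.

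Metabolic genes are the subject named in the title of the study. Of all counted genes 7.48% were higher and 4.56% lower past 2-fold over all members, and 2.62% and 1.95% in the marker-rich nuclei. The glycolysis and lipid lists held too few counted genes to be set apart from these shares. Of glycolysis genes 0 were higher and 0 lower of 11 over all members (median −0.01), and 0 higher and 1 lower of 6 in the marker-rich nuclei (median −0.19), where the list summed to 797 and 723 CPM against 873 and 921 CPM in the other nuclei. The lower gene was Pfkp, the platelet form of phosphofructokinase, with 23 and 13 UMIs, a log2 ratio of −1.34 (−2.45 to −0.30). Its direction was the opposite over all members, at 0.37 (−0.20 to 0.97) with 33 and 118 UMIs, of which 22 came from 1 knockout-labelled nucleus. Lipid and cholesterol genes gave 1 higher and 0 lower of 15 over all members (median 0.41), and 0 and 0 of 9 in the marker-rich nuclei (median 0.28), with sums of 1708 and 1854 CPM against 1567 and 1778 CPM in the other nuclei. Apoe, the lipid carrier, was at 247 and 300.5 CPM in the marker-rich nuclei, and Abca1, a cholesterol exporter, was 6.09-fold and 6.33-fold above the other nuclei without a difference between the libraries (0.11, −0.38 to 0.60). Sqle, an enzyme of cholesterol synthesis, was the higher gene over all members, with 8 and 61 UMIs.

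Genes of insulin and insulin-like growth factor signalling gave 0 higher and 2 lower of 16 over all members (median −0.25) and 0 and 0 of 13 in the marker-rich nuclei (median 0.22). The list summed to 3119 and 3383 CPM in the marker-rich nuclei, 3319.7 and 3210.1 CPM in endothelial nuclei, 3222 and 2743 CPM in mural nuclei and 1789.8 and 1753 CPM in the other nuclei. The vessel cells thus stood above the rest of the brain as the fibroblasts did. Grb10, an imprinted adaptor that restrains insulin signalling, stood at 5.42-fold and 4.73-fold the level of the other nuclei in the marker-rich nuclei, and Igfbp2, a binding protein of the growth factors, at 3.88-fold and 4.09-fold. Igf2r, the receptor that clears Igf2, was at 234 CPM (176 to 305) against 330.2 CPM (272 to 398), a log2 ratio of 0.49 (0.02 to 0.99). H19, an imprinted non-coding RNA, was 19.5-fold and 13.6-fold above the other nuclei, while Igf2 had only 1 and 3 UMIs in the members.

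Genes of dividing cells gave 0 higher and 6 lower of 10 over all members (median −1.08) and 0 higher and 1 lower of 4 in the marker-rich nuclei (median −0.80). Of all genes 4.56% were lower over all members and 1.95% in the marker-rich nuclei. At least 3 UMIs of the list were found in 13 of 80 (16.2%) and 27 of 120 (22.5%) members, and in 12 and 16 of the marker-rich nuclei, against 10.3% and 9.42% of the other nuclei. Top2a, a topoisomerase needed to separate chromosomes, had 58 UMIs in 16 wildtype marker-rich nuclei and 46 in 16 knockout-labelled ones, 247 CPM (188 to 320) against 137 CPM (100 to 183), a log2 ratio of −0.85 (−1.44 to −0.27). Cenpf, a kinetochore protein, was the lower gene with 28 and 20 UMIs, 11 of the 28 in 1 nucleus. Mki67 had 14 and 11 UMIs. The list thus rested on few nuclei. Thinned to 1000 UMIs, a UMI of the list was found in 23.4% and 20.7% of members and in 23.3% and 21.1% of the other nuclei, so at equal depth the members could not be told from the rest.

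Among all genes, the highest ratios over all members were those of genes that the fibroblasts hardly expressed. Gm2516, a long non-coding RNA gene, had 2 and 136 UMIs, with 39 of the 136 in 1 nucleus, and 0 and 16 in the marker-rich nuclei. Nxph1, neurexophilin 1 of interneurons, had 13 and 376 UMIs in 6 and 22 members. Htr2c, a serotonin receptor, had 2 and 76 UMIs, of which 51.3% came from 1 nucleus. In the knockout-labelled members Gm2516 stood at 1.21 times, Nxph1 at 0.914 times and Htr2c at 1.25 times the level of the other nuclei, so they were not high there for a brain nucleus. The lowest ratios included H1f5, a replication-dependent linker histone, with 24 UMIs in 20 nuclei and 11 in 10, a log2 ratio of −2.59 (−3.77 to −1.51), Arhgap28, with 129 and 117 UMIs at −1.61 (−1.98 to −1.24), and Ror2, a Wnt5a receptor, with 148 and 148 UMIs at −1.47 (−1.81 to −1.13). Arhgap28 and Ror2 were at −0.74 and −0.58 in the marker-rich nuclei.

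Several of the highest and lowest ratios of the marker-rich nuclei rested on single nuclei. Nxph1 had 9 and 93 UMIs, 59 of the 93 in 1 nucleus. Ptgds, prostaglandin D synthase of the arachnoid, had 58 UMIs in 6 nuclei and 211 in 14, a log2 ratio of 1.34 (0.92 to 1.79), with 37 and 84 of them in 1 nucleus each. Lrp1b had 167 and 42 UMIs, 69 of the 167 in 1 nucleus, and Reln, the protein of Cajal-Retzius neurons under the pia, had 37 and 13, 29 of the 37 in 1 nucleus. Asic2, an ion channel subunit, had 274 UMIs in 22 nuclei and 142 in 16, a log2 ratio of −1.47 (−1.77 to −1.17), with 83 of the 274 in 1 nucleus. D130079A08Rik had 0 and 31 UMIs. Set against 3 UMIs over all wildtype nuclei this is at least 7.22-fold higher, with 17 of the 31 in 1 nucleus.

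Other ratios were spread over many nuclei. Cntln, a centriole protein, had 46 UMIs in 28 wildtype nuclei and 19 in 16 knockout-labelled ones, a log2 ratio of −1.79 (−2.65 to −0.99), with at most 4 in 1 nucleus. Usp46, a deubiquitinase, had 38 in 22 and 19 in 18, at −1.52 (−2.40 to −0.69). Anxa2, annexin A2, had 54 in 34 and 35 in 28, at −1.14 (−1.80 to −0.50), and was 20.8-fold and 12.2-fold above the other nuclei. Hmgb3, a chromatin protein, had 4 in 4 and 30 in 22, at 2.39 (0.88 to 4.35), and Ppargc1b, a coactivator of mitochondrial genes, 4 in 4 and 27 in 19, at 2.24 (0.72 to 4.21). In these 5 genes no nucleus gave more than 5 UMIs. In the other nuclei of the brain the log2 ratios of Cntln, Usp46 and Hmgb3 were 0.019, 0.0020 and −0.0032. No such ratio is given here for Anxa2 and Ppargc1b, so these values do not extend to them.

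Markers of other cells ranged from 0 to above the level of the brain in the marker-rich nuclei. The mural list summed to 192 and 190.4 CPM, above the 76.0 and 84.5 CPM of the rest and below the 3331 and 2329 CPM of mural nuclei. It holds Rgs5, Kcnj8, Abcc9 and Higd1b, which the rules limit in members and require in mural nuclei. The gap to mural nuclei is therefore partly set by the choice. Microglia and macrophage genes summed to 85.2 and 125 CPM against 110 and 105 CPM in the rest, and choroid plexus genes to 247 and 428 CPM against 450 and 479 CPM. Haemoglobin genes, from red blood cells, summed to 929 and 1148 CPM against 1002 and 787 CPM in the rest, so the library that was higher was not the same in the 2 sets. Cajal-Retzius genes summed to 226 and 92.2 CPM, against 264 and 341 CPM in the rest. Cartilage and bone genes summed to 132 and 167 CPM against 77.0 and 75.5 CPM in the rest. Muscle genes were at 0 in the marker-rich nuclei of both libraries, and of the Schwann cell and neural crest list 3 of 4 genes and of the epidermal list 2 of 3 were at 0. Radial glia genes summed to 1729.8 and 1892 CPM against 1268 and 1229.8 CPM in the rest, a list that holds Slc1a3, at 1035 and 1014 CPM in the marker-rich nuclei. The part of these genes in the ratios between the libraries was not tested.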

How the data were processed

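The values the authors deposited are unnormalised UMI counts (55416 gene features by barcode), 1 library per genotype, sequenced from nuclei of frozen whole fetal mouse brain with a capture target of 10000. Per the file headers the authors made the counts with Cell Ranger 6.1.1, while the submitters' processing notes list Cell Ranger 3.0.1, STAR and GRCm39. Whether introns and strand were used in counting is not given in the sources used here. Depth per set of nuclei is given in the results.

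Member nuclei, found by the rule stated above, had their UMIs summed per library and divided by the sum over all genes to give CPM. Intervals are exact Poisson for CPM, exact conditional binomial for ratios, exact binomial (Clopper-Pearson) for shares and Newcombe for differences of shares, all at 95% and for counting error only, since UMIs of 1 library share its preparation. No test between genotypes was run. A gene was counted with at least 30 UMIs over the members of both libraries and named past 2-fold.

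The members and the 32 gene lists (393 genes) were chosen with earlier results of these data known. Named were the 7 rule genes, Cav1 with its neighbours and the caveola genes, the 20 leading member-high genes, the 10 highest and 10 lowest ratios ranked by the interval bound nearest 0, and from each list the up to 4 genes with the most UMIs and those past 2-fold; genes outside this, among them those of the marker-rich comparison and the co-detection counts, were chosen after their values were seen. The marker-rich limit of 0.1%, the thinned rule and the thinned levels were added after seeing the data. Alternatives tried were other rule sums, gene minimums and UMI minimums, at least 2 rule genes, removal of the 8% highest Scrublet scores or of members with 3 or more neuronal UMIs, median-of-ratios scaling, equal weight per nucleus, leaving out the 3 deepest members, and thinning to 1000 UMIs (seed 7). The counting of genes past 2-fold was tested on simulated data with known ratios. These were Poisson counts without differences between nuclei, so the simulation checks the calculation only and not the calls in these data. Python 3.11.15, numpy 2.4.6, scipy 1.17.1, pandas 2.3.3, scanpy 1.11.5 and matplotlib 3.10.9 were used. All 430 named genes had a position in GENCODE M39.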

Additional observations from a re-analysis of the deposited data

Results flagged for a closer look

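Signal of the fibroblast genes also appeared outside the nuclei that were analysed. Barcodes with at least 200 but fewer than 500 detected genes, too few to be kept, met the sums of the rule in 12 of 2913 cases in the wildtype library and in 11 of 3831 in the knockout-labelled library. The endothelial limit kept out 2 wildtype and 2 knockout-labelled nuclei through Cdh5 alone. These held at least 3 UMIs of Cdh5 and none of Flt1, Kdr, Cldn5 or Pecam1, while Slc6a13 summed to 10 UMIs in the wildtype pair and 11 in the knockout-labelled pair, and Ranbp3l to 8 and 11.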

How the results depend on the processing

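The member share in the knockout-labelled library, 1.80% as reported, was 2.22% with a rule sum of at least 3, 1.29% with at least 6, 1.25% with a minimum of 200 genes, 2.21% with 1000 genes and 1.43% without the 8% highest Scrublet scores. Without members that held 3 or more neuronal UMIs, 39 wildtype and 45 knockout-labelled members were left, 0.583% and 0.674% of nuclei, a difference of 0.0903 points, with 52 genes higher and 45 lower. Genes lower past 2-fold, 327 as reported, numbered 205 with a rule sum of at least 6, 206 without the 3 deepest members, 532 with at least 20 UMIs and 167 with at least 50, which left 336 higher. The marker-rich nuclei gave 121 and 90, and members thinned to 1000 UMIs 61 higher and 31 lower. Median-of-ratios scaling took the median log2 ratio of −0.04 off every ratio, which raised each slightly (589 higher, 279 lower). The thinned shares of members with a UMI of a list were 31.2% and 31.0% for the pial, 31.2% and 31.0% for the arachnoid, 53.2% and 31.0% for the dural, 55.8% and 53.4% for the retinoic acid and 23.4% and 20.7% for the dividing list, since thinning removes UMIs. Log2 ratios that changed sign without the neuronal members were Cenpe 1.23, Cenpf 0.19, Col1a2 0.10, Col4a5 0.14, Col4a6 0.14, Dkk2 0.51, Rarb 0.029, Tbx15 0.44, Tes −1.23, Tnc −0.035, Gm47865 0.16 and Gm45321 −0.23. In the marker-rich nuclei Pacsin1 was −0.10 and Cntnap5a −0.35, and after thinning Cenpe was 1.99, Col4a6 0.57 and Cntnap5a −0.0062. The cause of these changes was not tested. No paired analysis was possible because each genotype has 1 library.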
